A study of Rattus norvegicus with 256 samples.

Results

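Genes of the neutrophil granules and of the abundant cytosolic proteins of neutrophils were followed across 31 organs of the rat. The set was defined by symbol as Mpo, Elane, Camp, Ngp, S100a8, S100a9, Lcn2 and Mmp8, and its members were all probesets that the annotation of the RAE230_2 array gives to those symbols. Of the 8 genes, 5 had a probeset, 1 each, among the 31042 probesets of the array. These were Camp (1393603_at), Mmp8 (1387735_at), Lcn2 (1387011_at), S100a8 (1368494_at) and S100a9 (1387125_at). Mpo, Elane and Ngp matched no probeset by symbol, gene ID or accession and were not analysed here, so the set holds no myeloperoxidase or elastase and covers only genes of the later granules and the cytosolic pair.

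Neutrophils are made in the bone marrow, and their granules are filled in order as the cells mature. Azurophil granules with myeloperoxidase and elastase come first, specific granules with cathelicidin, lipocalin 2 and collagenase follow, and gelatinase granules come last. The transcripts of most granule proteins are made in the marrow precursors and decline before the cells enter the blood. S100a8 and S100a9 encode the 2 chains of calprotectin, a calcium-binding protein of the cytosol that withholds zinc and manganese from microbes.

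The study took organs from 5 male and 5 female Han Wistar-derived rats (AlpkHsdBrlHan:WIST), untreated, whose age is not given in the sources used here. The 127 arrays of males and 129 of females each held the RNA of 1 organ of 1 rat. The bone marrow had 9 arrays (5 male, 4 female), the thymus 8 (4 male, 4 female), the lung 10 (5 male, 5 female) and the spleen 8 (3 male, 5 female). Values are GCRMA summaries on a log2 scale, in which 1 unit is a 2-fold difference, and the study set a mean level above which a probeset counted as expressed, called the expression threshold below. Whole organs were used, so each array mixes cell types.

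The organ labels were checked against marker genes. Over the 5 measured genes of lung epithelium (the surfactant proteins among them), the mean level per array ran between 14.23 and 14.47 in the lung and between 2.37 and 2.57 in the spleen. The 6 T cell genes lay between 4.59 and 5.83 in the bone marrow and between 12.83 and 13.27 in the thymus. The 9 erythroid genes lay between 12.59 and 12.86 in the bone marrow and between 9.81 and 12.10 in the spleen. Xist and Eif2s3y went against the labelled sex on 4 arrays, which were those labelled aorta male 3, bone marrow male 5, bone marrow female 2 and heart male 5. The main bone marrow results are therefore also given without its 2 such arrays.

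All 5 genes were highest in the bone marrow among the 26 somatic organs, and 4 of them among all 31 organs. Lcn2 was the exception, with an epididymis mean of 12.98 ± 2.12 (SD, n = 3) against 12.75 ± 0.16 (SD, n = 9) in the marrow. The lowest epididymis array, at 10.54, lay below the lowest marrow array, at 12.55. Of all 19649 probesets that passed the expression threshold in at least 1 organ, 934, or 4.75%, had their highest organ mean in the bone marrow. Camp and Mmp8 passed the threshold in the bone marrow alone, S100a8 in 5 organs, S100a9 in 7 and Lcn2 in 8.

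**Figure D1:**
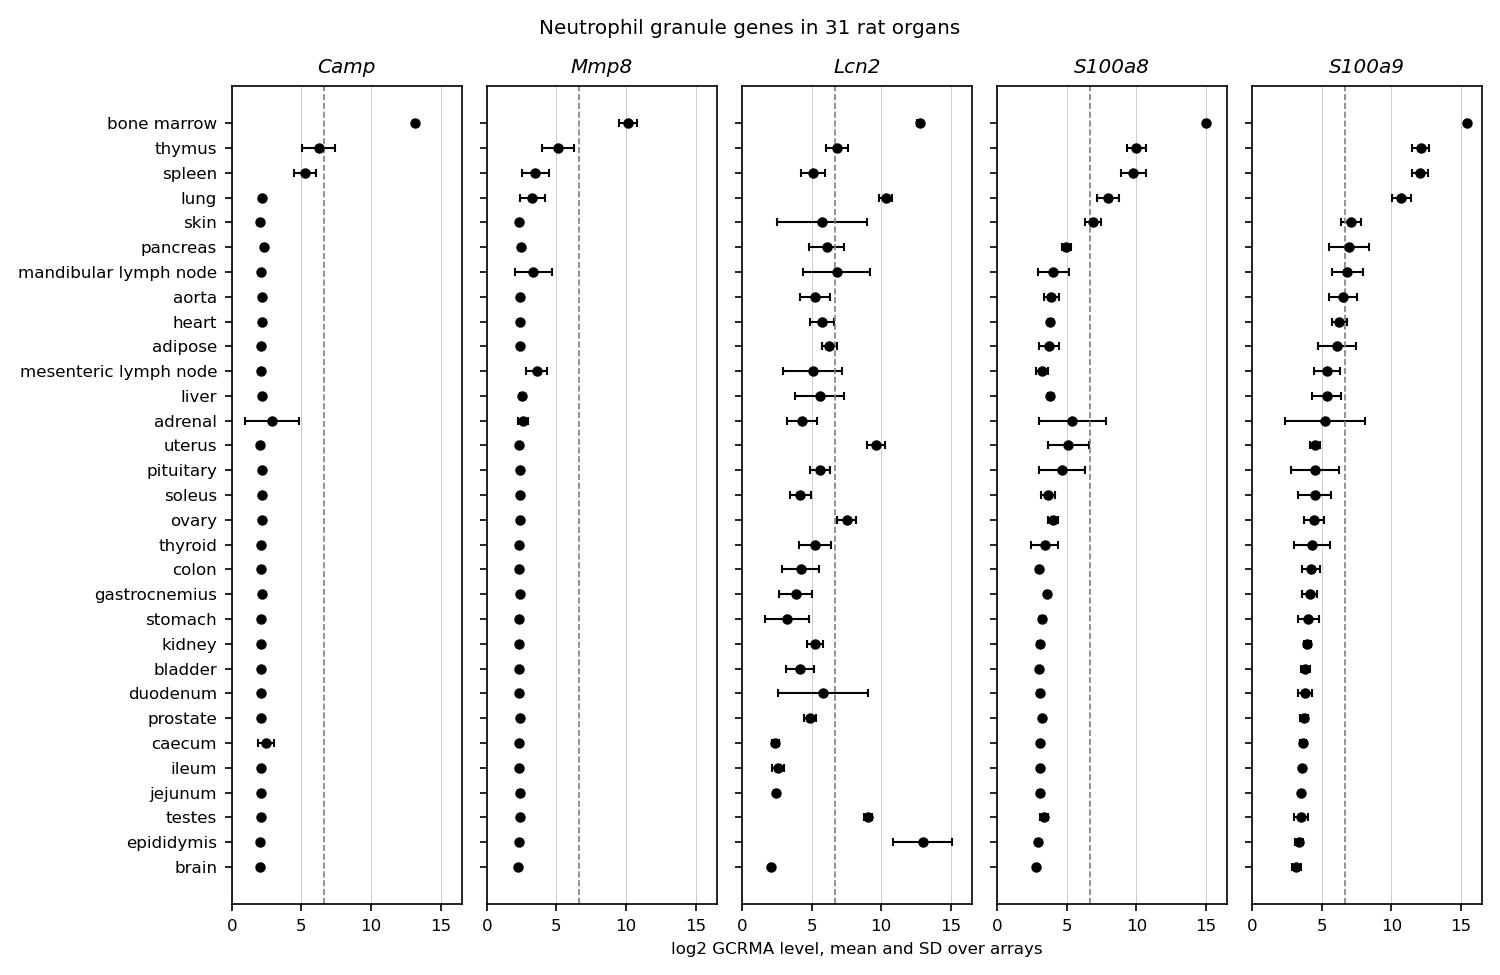
Mean log2 GCRMA level of the 5 genes in each of 31 organs, on the horizontal axis, with bars for the SD over arrays and a dashed line at the expression threshold. Organs run down the page by their S100a9 mean; the bone marrow stands apart for Camp and Mmp8, while Lcn2 is also high in the epididymis, lung, uterus and testes.

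Camp encodes the rat cathelicidin, an antimicrobial peptide of the specific granules. Its lowest, median and highest values were 13.00, 13.15 and 13.33 in the bone marrow, 4.46, 6.26 and 7.70 in the thymus, 2.05, 2.19 and 2.27 in the lung, and 4.37, 5.31 and 6.22 in the spleen. No array of another organ reached the lowest bone marrow array, and 4 of the other 247 arrays passed the threshold, the highest of them adrenal female 2 at 8.31. Thymus and spleen lay between the lung and the marrow and overlapped each other, while the lung was close to the values of most other organs.

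Mmp8 encodes neutrophil collagenase, another content of the specific granules. It had 9.22, 10.48 and 10.94 in the bone marrow as lowest, median and highest values, against 2.30, 3.32 and 5.11 in the lung and 2.53, 3.08 and 5.14 in the spleen. The thymus held 3.40, 5.31 and 6.49, so that none of the 247 arrays outside the marrow passed the threshold. The bone marrow arrays of Mmp8 spread more (SD 0.63) than those of Camp (SD 0.13).

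S100a8 had 14.73, 15.04 and 15.17 in the bone marrow, 9.26, 9.87 and 11.16 in the thymus, 6.41, 8.13 and 9.32 in the lung and 8.53, 9.60 and 11.08 in the spleen. The skin followed at a mean of 6.89 ± 0.60 (SD, n = 9), and no other organ mean passed the threshold. S100a9 had 15.27, 15.41 and 15.52 in the bone marrow, 11.23, 12.22 and 12.69 in the thymus, 9.22, 10.75 and 11.54 in the lung and 11.004, 12.12 and 12.89 in the spleen. Below the lung, S100a9 dropped to the skin, pancreas and mandibular lymph node, with means of 7.11 ± 0.72 (SD, n = 9), 6.97 ± 1.42 (SD, n = 7) and 6.84 ± 1.12 (SD, n = 9) that overlapped from array to array. The bone marrow, thymus, spleen and lung came in the same order for both chains, and their organ means correlated over the 31 organs (r = 0.95) and over the 30 without the bone marrow (r = 0.93). The 2 genes lie next to each other on chromosome 2 in the RefSeq annotation, with 0 genes between them.

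**Figure D2:**
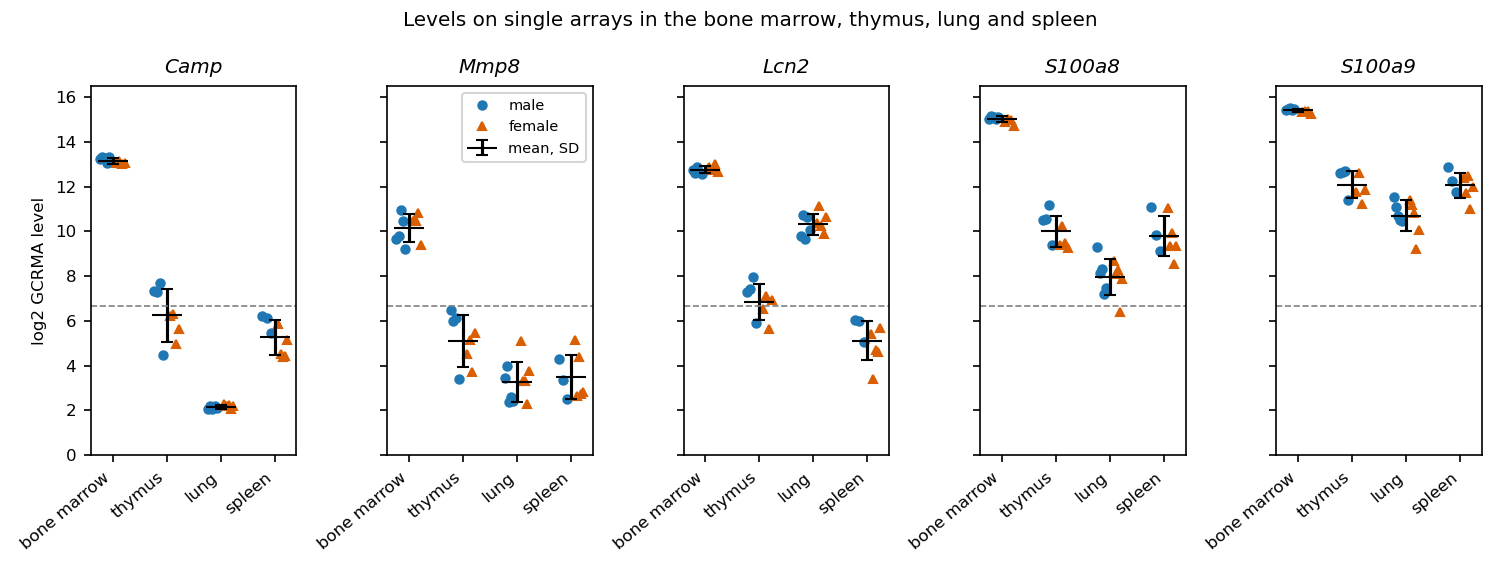
Log2 GCRMA level of each gene on every array of the bone marrow, thymus, lung and spleen, with males as circles, females as triangles, and black bars for the mean and SD over arrays. The bone marrow arrays lie above every array of the other organs shown, for all 5 genes.

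The first comparison set the bone marrow, where neutrophils form, against the spleen. All 5 genes were higher in the bone marrow, among 1678 of 31042 probesets called higher, or 5.41%. A call asked for an adjusted p under 0.05 (limma with sex as a covariate, Benjamini-Hochberg over all probesets), a difference above 2-fold and a mean above the expression threshold in at least 1 organ. Camp was 7.79 log2 units higher (SE 0.21, adjusted p = 1.34e-13), Lcn2 7.57 (SE 0.29, adjusted p = 6.19e-12) and Mmp8 6.69 (SE 0.40, adjusted p = 1.31e-09). The cytosolic pair was above the threshold in both organs, and the differences were 5.18 for S100a8 (SE 0.30, adjusted p = 8.80e-10) and 3.31 for S100a9 (SE 0.19, adjusted p = 6.32e-10). No spleen array reached a bone marrow array in any of the 5. Fewer neutrophils and less RNA of these genes per neutrophil cannot be told apart in whole organs.

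Against the lung, all 5 genes were again higher in the bone marrow, among 2768 probesets called higher, or 8.92%. Camp was 11.002 log2 units higher (SE 0.05, adjusted p = 1.62e-27), S100a8 7.02 (SE 0.27, adjusted p = 4.46e-14), Mmp8 6.91 (SE 0.34, adjusted p = 1.98e-12) and S100a9 4.69 (SE 0.22, adjusted p = 1.31e-12). Lcn2 showed the smallest difference, 2.45 (SE 0.16, adjusted p = 1.10e-10), with 12.55, 12.73 and 13.03 as lowest, median and highest values in the bone marrow, against 9.66, 10.31 and 11.14 in the lung. In the spleen Lcn2 had 3.41, 5.23 and 6.05, so that its lung arrays stood between those of the marrow and of the spleen. Where a level lies below the threshold, the size of a difference is less certain than its SE. Camp and Mmp8 were below it on every spleen and lung array and Lcn2 on every spleen array, and for these the distance of the bone marrow mean from the threshold was 6.52 for Camp, 3.49 for Mmp8 and 6.10 for Lcn2.

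Without the 2 bone marrow arrays at odds with their labelled sex, Camp was 7.77, S100a8 5.18, S100a9 3.30, Lcn2 7.56 and Mmp8 6.75 log2 units higher than in the spleen, and all 5 were still called. Against the lung the values were 10.99, 7.02, 4.69, 2.46 and 6.99 for Camp, S100a8, S100a9, Lcn2 and Mmp8, also all called. In all, the bone marrow was higher in 149 of 150 comparisons of a gene with another organ (149 also without the 4 arrays at odds with their labels), where 9.61% of all probesets were called higher over the 30 organs together. The smallest differences were those with the thymus for Camp (6.89), Mmp8 (5.03), S100a8 (4.98) and S100a9 (3.30).

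The lung and spleen, both taken here as organs of mature neutrophils, were then set against each other. S100a8 had 6.41, 8.13 and 9.32 as lowest, median and highest values in the lung, against 8.53, 9.60 and 11.08 in the spleen, and was 1.84 log2 units lower in the lung (SE 0.40, adjusted p = 9.16e-04). S100a9 was 1.40 lower (SE 0.29, adjusted p = 6.81e-04), and for both genes the arrays of the 2 organs overlapped. Lcn2 went the other way and was 5.17 higher in the lung (SE 0.32, adjusted p = 3.59e-10), with no overlap. Of all probesets, 7.99% were called higher and 7.03% lower in the lung. Erythroid genes (8 of 9), alpha-defensins (3 of 4) and cell division genes (5 of 6) were lower in the lung. None of these lists held a gene called higher there, and their medians were -7.25, -6.38 and -4.04. Specific and gelatinase granule genes went both ways, with 3 of 9 higher and 2 lower in the lung. The part of blood-forming cells in these differences was not tested. Camp differed by -3.16 (SE 0.22) but lay below the threshold in both organs and was not called, and Mmp8 differed by -0.18 (95% interval -1.10 to 0.74). The thymus did not separate from the spleen for S100a8 (0.14, 95% interval -0.66 to 0.95) or S100a9 (-0.02, 95% interval -0.60 to 0.57). Lcn2 was higher in the thymus than in the spleen by 1.64 (SE 0.37, adjusted p = 0.00204), where 6.4% of probesets were called higher.

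Within an array, Camp was set against S100a9 to follow a granule gene beside a gene of the cytosol. Camp minus S100a9 was -2.24 ± 0.09 in the bone marrow (SD, n = 9) and -6.79 ± 0.62 in the spleen (SD, n = 8), a shift of 4.55 (SE 0.22; two-sided exact permutation test, p = 8.23e-05, the smallest that the 2 groups allow). Against the lung, at -8.54 ± 0.67 (SD, n = 10), the shift was 6.30 (SE 0.21; exact permutation test, p = 2.17e-05, again the smallest possible). Without the bone marrow arrays at odds with their labelled sex the shifts were 4.54 and 6.29. Camp was below the threshold on every spleen and lung array, and S100a9 in the bone marrow, with a mean of 15.41, stood close to the highest value of the whole series, 15.83. The sizes of the shifts are uncertain to that extent, and the part of the ends of the scale in them was not tested. Camp took the place of the planned Mpo after the data were seen. The shifts combine the differences of Camp and S100a9 given above for the same arrays. The p-values of the shifts therefore add no separate support.

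Most other measured genes of the same granules were also higher in the bone marrow. The list of specific and gelatinase granule genes holds Camp, Lcn2 and Mmp8 themselves, so its counts are in part those of the set. Of its 9 measured genes, 8 were higher in the bone marrow than in the spleen and 1 was lower. Of all probesets, 5.41% were called higher and 8.11% lower in that comparison. The list's median, 6.69 against 0.12 over all probesets, was the value of Mmp8. Mmp9, or gelatinase B, was 7.80 higher and Pglyrp1, a peptidoglycan-binding protein, 7.42 higher, Hp, or haptoglobin, 6.54 higher and Fcnb, a ficolin, 4.89 higher. The exception was Slpi, an inhibitor of elastase, which had 9.21 in the bone marrow and 13.72 in the spleen (-4.49, adjusted p = 2.97e-16). Against the lung, 8 of 9 were higher as well (median 6.91, again the value of Mmp8), where 8.92% of all probesets were called higher. Of 4 measured alpha-defensins, antimicrobial peptides of granules, 4 were higher in the bone marrow than in the spleen, Defa7 by 7.07 and Defa5 by 4.59, and 4 of 4 than in the lung (median 11.87). The relatives of the calprotectin chains differed by less, with 1.12 for S100a4, 1.08 for S100a11 and 0.93 for S100a6, which missed the 2-fold threshold. Against the lung none of the 3 was higher in the bone marrow, with -2.73 for S100a6, which was lower, and -0.28 for S100a4 and -0.87 for S100a11, which were not called. The 2 measured genes of the azurophil granule list, Lyz2 and Cd63, also serve macrophages and many other cells, and neither was called, with 0.81 and -0.18.

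Genes of the oxidase that makes superoxide in the phagosome were also examined. None of the 5 measured was called by limma between bone marrow and spleen, where every difference was under 2-fold (-0.42 to 0.43, median -0.06) and 3 had an unadjusted and 2 an adjusted p under 0.05 (the methods' t-test also called 0). Of all probesets, 13.5% were called in that comparison in either direction (8.11% lower), a share at which 0 of 5 does not set these genes apart. Against the lung, 4 of 5 were higher in the bone marrow (median 2.49), where 8.92% of all probesets were called higher. Of 10 genes of the surface and signalling of mature neutrophils, 4 were higher and 3 lower in the bone marrow than in the spleen. The shares of all probesets in that comparison were 5.41% higher and 8.11% lower. Il1r2, the decoy receptor of interleukin 1, was 5.91 higher, Itgam, the alpha chain of complement receptor 3, 3.19 higher and Csf3r, the receptor of the growth factor that drives granulopoiesis, 2.97 higher. Fcgr3a, an Fc receptor shared with macrophages and natural killer cells, was 4.69 lower. Of 7 measured transcription factors of granulopoiesis, 4 were higher in the bone marrow than in the spleen, Myb (5.69), Cebpe (4.67), Gfi1 (4.20) and Cebpa (2.52), 1 was lower, Cebpb (-1.19), and Runx1 (0.88) and Cebpd (0.31) were not called. Against the lung, 5 were higher and 2 lower, Cebpb (-2.75) and Cebpd (-1.70), beside 8.92% and 11.8% of all probesets. Cebpe is the factor that drives specific granule genes in mice and humans.

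Genes of other marrow cells were also higher in the bone marrow than in the spleen. Of all probesets, 5.41% were called higher and 8.11% lower in that comparison. By list, 6 of 9 erythroid genes, 4 of 4 megakaryocyte and platelet genes and 6 of 6 genes of cell division were called higher. So were 6 of 7 genes of eosinophils, mast cells and basophils. Without the arrays at odds with their labelled sex, 5 of 7 genes of eosinophils, mast cells and basophils were, with Fcer1a no longer called, and no other call in these lists changed against the spleen. The mean level of the 7 eosinophil, mast cell and basophil genes ran between 7.88 and 10.14 over bone marrow arrays and between 3.32 and 4.56 over spleen arrays, and Epx and Prg2 were 8.59 and 7.35 higher. The 6 T cell genes (6 of 6) and 3 B cell genes (3 of 3) were lower in bone marrow than in spleen. So were 7 of 8 genes of monocytes and macrophages. Against the lung, 8.92% of all probesets were called higher in the bone marrow and 11.8% lower. There, 0 of 6 T cell genes were called, which does not set them apart at those shares. Of the B cell genes, 2 of 3 were higher in the bone marrow than in the lung. Of the 8 monocyte and macrophage genes, 4 were higher and 2 lower than in the lung. The erythroid, megakaryocyte and platelet, and cell division genes were higher than in the lung too (8 of 9, 4 of 4 and 6 of 6). Of the 7 eosinophil, mast cell and basophil genes, 4 were higher and 1 lower than in the lung. The part of these cells in the result for the 5 genes was not tested.

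**Figure D3:**
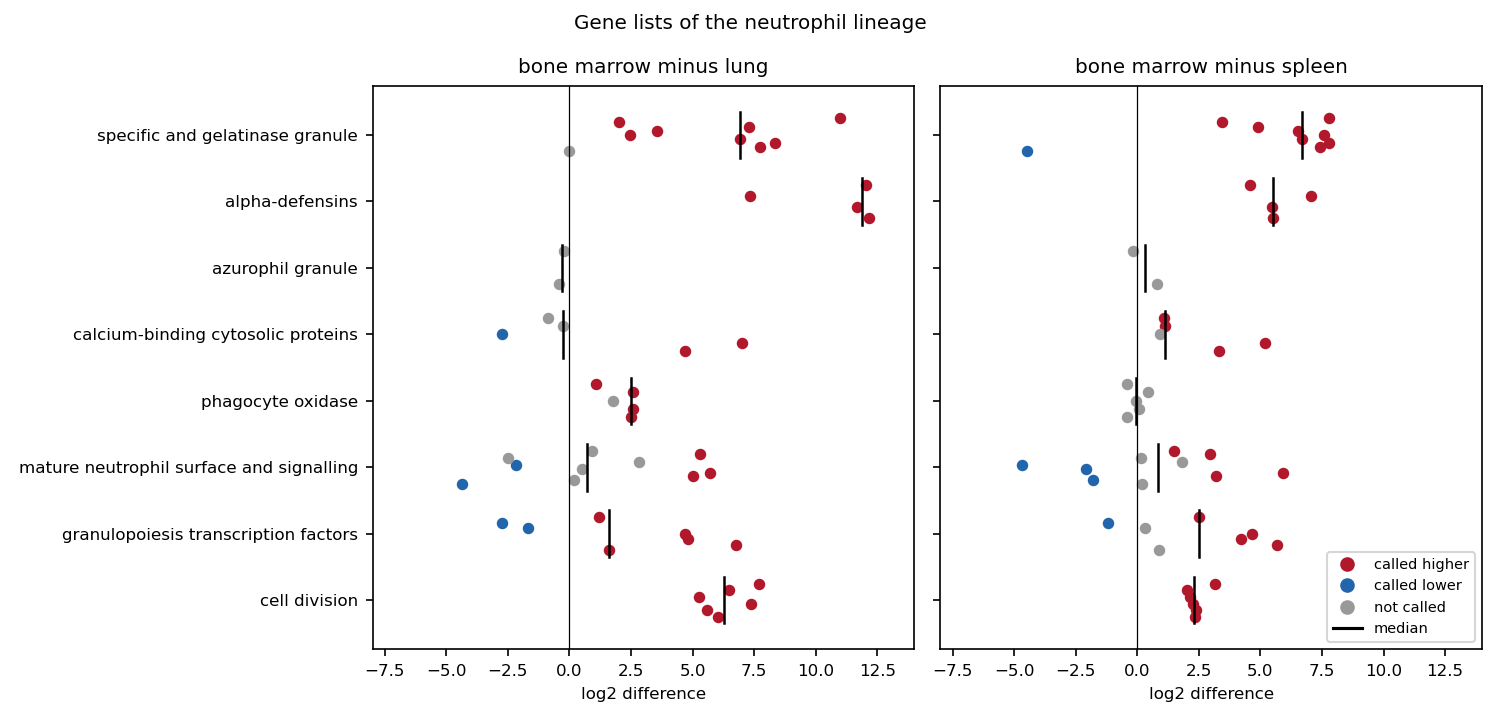
Log2 difference between bone marrow and lung (left) and between bone marrow and spleen (right) for the measured genes of 8 lists, 1 point per gene, red where called higher, blue where called lower and grey where not called, with a black line at the list's median. All 4 alpha-defensins and 8 of 9 specific and gelatinase granule genes are called higher in each panel. Of the latter, Slpi is called lower in the spleen panel and 1 gene is not called in the lung panel. The azurophil granule points lie near 0 in both.

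The promoters of the measured genes were read from RefSeq, which held 4 of the 5 (build GRCr8, 300 bases that include the gene's start). They are shown because all 4 genes were higher in the bone marrow than in the spleen and lung. Capitals mark matches to the C/EBP core TTGCNNAA and the PU.1 core GAGGAA, sought on both strands.
Camp, chr8:118721949-118722248, minus strand: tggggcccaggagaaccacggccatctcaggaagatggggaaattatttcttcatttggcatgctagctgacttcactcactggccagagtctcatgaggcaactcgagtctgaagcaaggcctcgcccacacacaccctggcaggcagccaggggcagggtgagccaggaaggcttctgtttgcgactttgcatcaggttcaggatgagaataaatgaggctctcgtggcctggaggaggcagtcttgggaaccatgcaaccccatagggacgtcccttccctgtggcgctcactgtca
Mmp8, chr8:13008640-13008939, plus strand: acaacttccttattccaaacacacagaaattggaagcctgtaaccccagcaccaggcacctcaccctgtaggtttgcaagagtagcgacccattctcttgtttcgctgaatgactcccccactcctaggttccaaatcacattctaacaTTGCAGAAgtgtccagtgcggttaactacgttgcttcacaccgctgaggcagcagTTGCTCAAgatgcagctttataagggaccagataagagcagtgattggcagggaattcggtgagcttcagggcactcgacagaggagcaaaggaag
Lcn2, chr3:36081731-36082030, minus strand: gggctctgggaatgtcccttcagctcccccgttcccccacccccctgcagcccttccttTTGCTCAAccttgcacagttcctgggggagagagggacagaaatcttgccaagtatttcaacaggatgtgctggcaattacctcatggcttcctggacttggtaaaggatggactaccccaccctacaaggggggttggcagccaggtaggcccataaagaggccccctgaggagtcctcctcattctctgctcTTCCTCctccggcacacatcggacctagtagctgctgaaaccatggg
S100a9, chr2:178490573-178490872, minus strand: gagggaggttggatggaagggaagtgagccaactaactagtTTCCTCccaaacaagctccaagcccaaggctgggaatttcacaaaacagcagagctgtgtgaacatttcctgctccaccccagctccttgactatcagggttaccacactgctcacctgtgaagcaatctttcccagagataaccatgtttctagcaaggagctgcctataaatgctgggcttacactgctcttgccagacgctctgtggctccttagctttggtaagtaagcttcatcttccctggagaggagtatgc
Mmp8 had 2 C/EBP matches, Lcn2 had 1 C/EBP and 1 PU.1 match, S100a9 had 1 PU.1 match and Camp had 0 matches of either. Of all 33469 promoters of this length, 10.6% held the C/EBP core and 27.6% the PU.1 core. A match is a run of letters and no sign that a factor binds there.

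Lcn2 encodes lipocalin 2, which binds the iron carriers of bacteria and is made both by neutrophil precursors and by epithelia. Beside the bone marrow, organ means passed the threshold in the epididymis, lung, uterus, testes, ovary, thymus and mandibular lymph node. The epididymis arrays had 10.54, 14.18 and 14.22, and Lcn2 did not differ there from the bone marrow beyond its spread (-0.29, 95% interval -1.82 to 1.24, adjusted p = 0.711). The uterus had a mean of 9.61 ± 0.65 (SD, n = 5), the testes of 9.04 ± 0.27 (SD, n = 4) and the ovary of 7.52 ± 0.68 (SD, n = 5), while Camp stayed between 2.02 and 2.17 on all of these arrays. In the skin, the arrays were split, with 3 of 9 above the threshold, at 9.36, 9.68 and 10.79, and the other 6 between 2.54 and 4.66. In the duodenum, 5 of 9 lay above the threshold and the other 4 between 2.21 and 2.56, in both sexes. Correlation of Lcn2 with S100a8 over the 30 organs without bone marrow was 0.27 by Pearson and 0.50 by Spearman correlation, and with Camp 0.02 and 0.07.

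**Figure D4:**
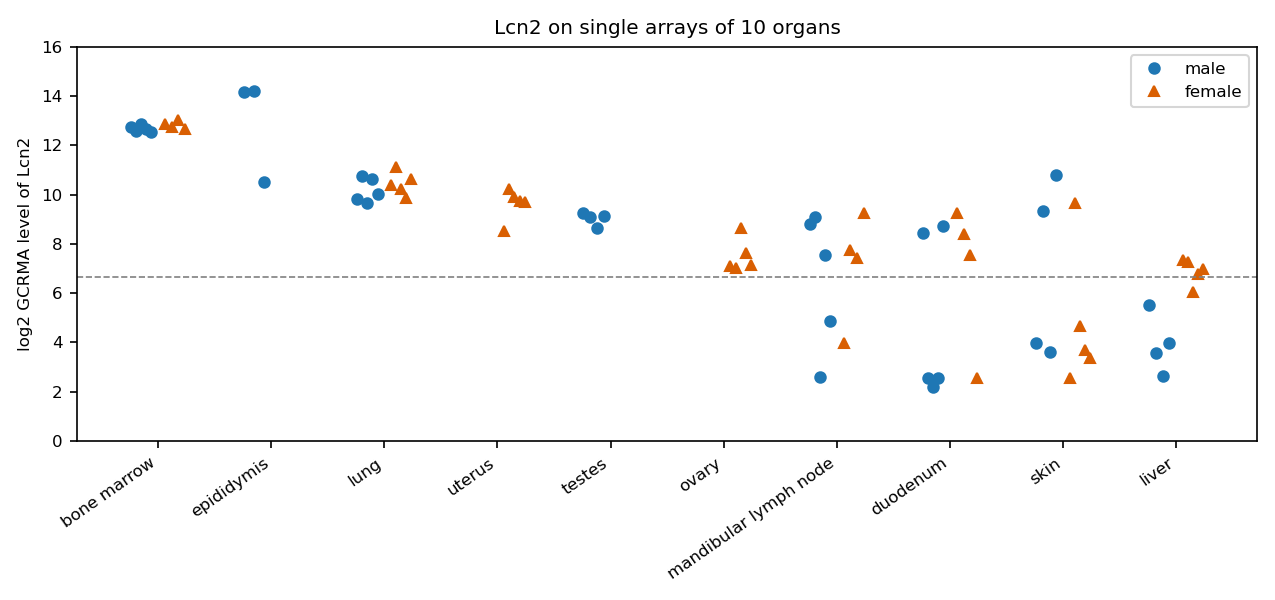
Log2 GCRMA level of Lcn2 on single arrays of 10 organs, males as circles and females as triangles, with the expression threshold as a dashed line. The duodenum and skin arrays fall into high and low values in both sexes, and the liver arrays of the sexes do not overlap.

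The study asked which genes differ between the sexes. Of 130 tests of the 5 genes in 26 somatic organs, 1 was called, where 0.312% of all probesets were called over the 26 organs together, and 10 had an unadjusted p under 0.05. The call was Lcn2 in the liver, which had 2.64, 3.58, 3.97 and 5.52 in males and 6.06, 6.78, 6.98, 7.28 and 7.35 in females. The groups did not overlap, and the male minus female difference was -2.96 (SE 0.55, adjusted p = 0.0363; 0.825% of probesets called in the liver). The methods' t-test did not call it (adjusted p = 0.0835). Leaving out any of 8 of the 9 arrays ended the limma call, with an adjusted p between 0.00852 and 0.0996 over the 9, while the difference stayed between -3.50 and -2.54. In the bone marrow, limma called 0 of 31042 probesets (0%) between the sexes, the sex-linked ones included, and 4 once the 2 arrays at odds with their labels were left out. Before adjustment, 1471 had a p under 0.05 in limma and 1224 in the methods' t-test, which called 0 as well. S100a8, S100a9 and Camp were between 0.11 and 0.18 higher in males than in females there (unadjusted p between 0.0258 and 0.0327, adjusted p of at least 0.999). Without the 2 arrays at odds with their labels (4 males, 3 females) they were between 0.12 and 0.17 higher, with a limma p between 0.0711 and 0.118 before adjustment. S100a9 in the skin had 7.42, 7.53, 8.03 and 8.10 in males and 5.87, 6.68, 6.70, 6.74 and 6.95 in females, a difference of 1.18 that missed the threshold (adjusted p = 0.116).

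The genes whose organ pattern was most like that of S100a9 were Cdc25b (r = 0.86), Lypd8l1 (r = 0.86) and the alpha-defensin Defa5 (r = 0.855), by Pearson correlation of organ means over 31 organs and with the members left aside. Without the bone marrow, 2 of these 3 remained among the closest 3, and by Spearman correlation 0 did. The closest to Camp were Prg2 (r = 0.99), the major basic protein of eosinophils, and the alpha-defensins Np4 (r = 0.97) and Defa5 (r = 0.95). Camp passed the expression threshold in the bone marrow alone, so these values lean on that organ. Without it the same 3 were closest, in the order Defa5 (r = 0.99), Np4 (r = 0.97) and Prg2 (r = 0.92). By Spearman correlation over the 31 organs the closest to Camp were others, Mcpt8 (0.89), Cd200r1l (0.85) and LOC102551899 (0.82). All of these organ means share the same arrays.

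Single animals could be followed across organs by their numbers. The relations of the bone marrow with the spleen and lung kept arrays at odds with their labelled sex under the rat of their label. S100a8 in the spleen and lung of the same 8 rats correlated with r = 0.85 and rho = 0.74, the largest of 12 relations examined (both chains, each pair of bone marrow, thymus, spleen and lung). Its two-sided exact permutation p was 0.00476, or 0.0571 after adjustment over the 12, which misses 0.05. The p doubles the smaller tail; counting permutations with an r at least as large in size gave 0.0037 and, adjusted, 0.0444, so the side of 0.05 depended on that definition. The rank correlation had an adjusted p of 0.385. Without the 2 rats farthest from the median, r was 0.80, and within the sexes it was 0.86. For S100a9, r was 0.80 and rho 0.64 (exact permutation p = 0.0294 and 0.0962, adjusted 0.176 and 0.385), and r was 0.24 without the 2 farthest rats, so it rested on them.

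One adrenal array stood apart. Adrenal female 2 had S100a8 at 12.04, S100a9 at 12.61, Camp at 8.31 and Lcn2 at 6.96, against at most 5.82, 7.91, 2.87 and 4.86 on the other 9 adrenal arrays. Mmp8, at 3.61 against at most 2.63, stayed below the expression threshold. Alpha-defensins were high on the same array, Np4 at 10.06, RatNP-3b at 11.36 and Defa5 at 10.03, and so were Prg2 at 8.58 and the erythroid gene Ahsp at 9.08. By list, 3 of 4 alpha-defensins, 6 of 9 erythroid genes and 2 of 7 eosinophil, mast cell and basophil genes lay over 1 log2 unit above all other adrenal arrays, as did 3 of 9 specific and gelatinase granule genes (Camp, Lcn2 and Fcnb) and 1 of 4 megakaryocyte and platelet genes. None did of 3 B cell, 6 T cell, 10 mature neutrophil, 5 oxidase, 2 azurophil granule and 7 transcription factor genes. The same held for 8 monocyte and macrophage and 6 cell division genes. Pglyrp1, Slpi and Defa7 lay below the highest of the other arrays. The share of all probesets over 1 log2 unit above the other adrenal arrays was not computed, so these counts have no background beside them. Leaving the array out moved bone marrow minus adrenal to 10.34 for S100a8, against 9.66 with it, to 11.005 for S100a9, against 10.26, and to 10.87 for Camp, against 10.30. All 5 genes were called either way.

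**Figure D5:**
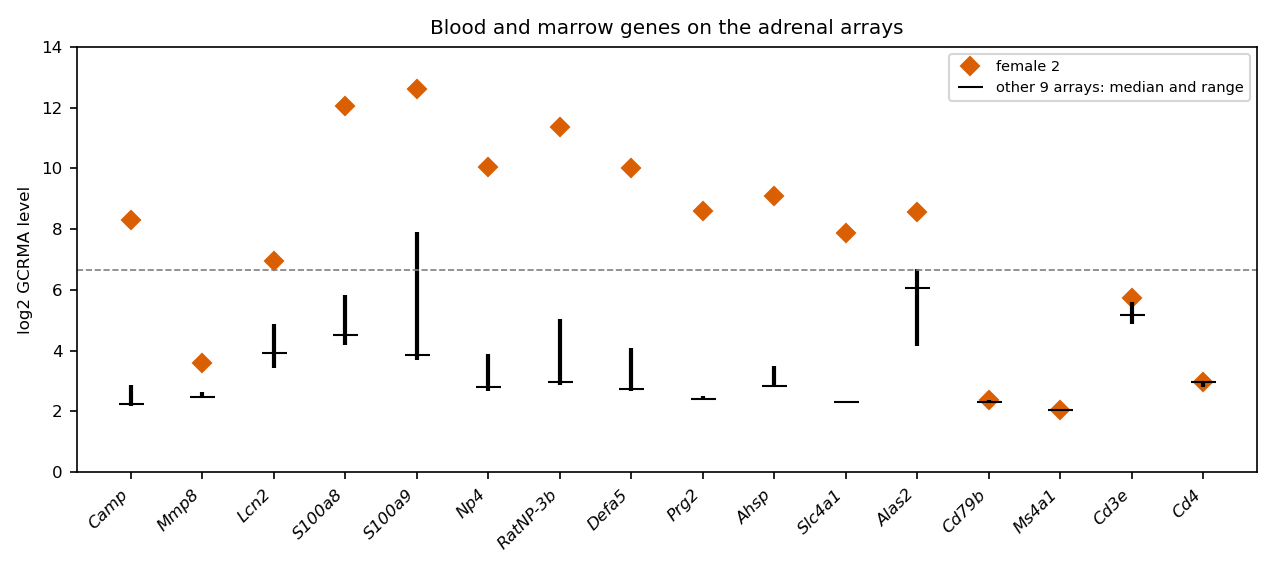
Log2 GCRMA level of the 5 genes and of 11 genes of marrow, red cells and lymphocytes on adrenal female 2 (diamonds) and on the other 9 adrenal arrays (line from lowest to highest, tick at the median). The genes were picked after their values were seen, and other members of their lists, such as Pglyrp1, Slpi and Defa7, did not stand above the other arrays. The B and T cell genes at the right stand in or close to the range.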

How the data were processed

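RNA of 31 organs was turned into cRNA, which was fragmented and hybridised to Affymetrix RAE230_2 arrays. The authors left out chips of poor quality and made 1 value per probeset with GCRMA, and the deposited values are log2, so no further log was taken. The GCRMA version is not given in the sources used here. Members and gene lists were chosen with earlier results of these data known. Named genes were every member probeset, up to 4 genes per list with the largest bone marrow minus spleen difference, and the 3 genes closest to S100a9; Slpi, Prg2, Np4, Cebpb, Cebpd, Runx1, Fcer1a, the genes closest to Camp and those of the adrenal array were named after their values were seen. For a listed gene with several probesets, that with the highest mean was used. Organs were compared pair by pair in limma 3.58.1 (R 4.3.3) with sex as a covariate, and sexes within each organ. On simulated data with the spread of bone marrow and spleen, 95 and 99 of 100 probesets changed by 1.5 and 2.5 log2 units were recovered among 31042. The changed probesets were drawn only from those with a mean over both organs above a level somewhat higher than the expression threshold. Both changes exceed 2-fold. Each probeset had the same spread in both organs, while that of Camp was 0.13 in the bone marrow and 0.77 in the spleen (SD). The recovery therefore does not extend to probesets of lower mean, to smaller changes or to spreads that differ between organs. Organs of 1 rat share its number in the supplement, and blocks by animal were an alternative. Deviations of the same rat correlated between -0.10 and 0.14 for bone marrow with spleen, -0.08 and 0.08 for bone marrow with lung, and -0.15 and 0.51 for lung with spleen. In these and in the blocks, bone marrow arrays at odds with their labelled sex were kept under the rat of their label, which is in doubt for them. Precision is limited by 2 to 5 arrays per organ and sex. The planned contrast of Mpo with S100a9 was replaced, after the data were seen, by Camp with S100a9. Exact tests used scipy 1.17.1.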

Additional observations from a re-analysis of the deposited data

Results flagged for a closer look

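Of 65 groups of 4 or 5 arrays with a value above the expression threshold, 8 held an array far from the rest by Dixon's criterion, a criterion that chance meets in about 1 group in 20. That rate does not apply here as it stands, since a group entered through any value above the threshold, and 5 of the 8 had no other array above it. Adrenal female 2 was high for Camp (8.31, others 2.22 to 2.87), S100a8 (12.04, others 4.52 to 5.82) and Lcn2 (6.96, others 3.42 to 4.26). Thymus male 4 was low for Camp (4.46, others 7.29 to 7.70) and S100a9 (11.42, others 12.59 to 12.69). S100a9 was low on skin female 4 (5.87, others 6.68 to 6.95), and high on soleus female 4 (7.23, others 3.58 to 4.39) and thyroid male 1 (7.15, others 3.50 to 4.03). No reason for these was tested.

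The sex difference of Lcn2 in the liver, where all male arrays lay below the expression threshold, was set against that in the bone marrow. The interaction, liver minus bone marrow of the male minus female differences, was -2.82 (SE 0.57, limma, adjusted p = 0.0185 over 31042 probesets), and this test was added after the liver call was seen. Without the 2 bone marrow arrays at odds with their labelled sex it was -2.87 (SE 0.66) and missed the threshold (limma, adjusted p = 0.0618).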

How the results depend on the processing

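The 5 genes stayed higher in the bone marrow than in the spleen and lung under all alternatives run, blocks by animal included (replicate block: 7.98 for Camp against the spleen and 11.02 against the lung), and with each array left out in turn (5 of 5 each time). The block, with the arrays at odds with their labels kept in it, changed no call of the 5 genes. Without single arrays the number of probesets called ran from 4112 to 4264 for bone marrow minus spleen, from 6394 to 6453 for bone marrow minus lung and from 4631 to 4728 for lung minus spleen. With no expression threshold they were 7195, 10162 and 7400, with no fold threshold 8328, 10165 and 8936, and with a 4-fold threshold 1760, 3652 and 2442. At 4-fold, 1 of the 5 genes was called between lung and spleen in place of 3. The only sex call, Lcn2 in the liver, had an adjusted p of 0.0363 in limma, and so gave 0 calls at an adjusted p under 0.01, and 0 with the methods' t-test (adjusted p = 0.0835). By Spearman correlation, 0 of the 3 genes closest to S100a9 were shared. Camp minus S100a9 shifted by 4.36 to 4.64 against the spleen and by 6.19 to 6.45 against the lung without single arrays. The contrast of Mpo with S100a9 was not run, since no probeset was matched to Mpo. Levels under the expression threshold are close to background, and differences from them carry that uncertainty.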

Other observations

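The pituitary held 2 arrays on which S100a8 and S100a9 were both higher than on the rest, 1 of them above the expression threshold. Male 1 had S100a8 at 8.73 and S100a9 at 8.63, and male 4 had 6.35 and 6.33, below the threshold, against 3.61 to 4.34 and 3.40 to 5.20 on the other 8 arrays. Camp lay between 2.13 and 2.39 on all 10. In the mandibular lymph node, Mmp8 had 5.28 and 5.78 on males 5 and 3, both below the threshold, where S100a8 was at 3.09 and 3.17.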
